A study of Mus musculus with 19 samples.

Results

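The miR-129, miR-137, miR-138, miR-153, miR-218 and miR-488 families are neuron-enriched microRNAs (miRNAs), and here they were followed in bulk small RNA libraries of mouse hippocampal CA1. Every row named miR-129, miR-137, miR-138, miR-153, miR-218 or miR-488 and then a hyphen was taken, which gave 15 mature products of 6 families among 1148 listed miRNAs. All 15 passed the filter on low counts, as did 509 of the 1148 listed. The mice were wild type, of a strain given as C57B/6JRj, and formed 3 groups. OldSAHA mice (6 libraries) were 20 months old and drank SAHA at 0.67 g per L of water with cyclodextrin at 18 g per L for 4 weeks. OldVeh mice (5 libraries) were 20 months old and drank cyclodextrin at 18 g per L alone for 4 weeks. YoungVeh mice (8 libraries) were 3 months old and drank the same vehicle, for a time that the sources used here do not give. SAHA, also called vorinostat, inhibits histone deacetylases, and cyclodextrin carries it in water. The sources used here do not say how many animals gave each library, so p-values measure the spread between these libraries only.

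A miRNA is cut from a hairpin, and either arm of the hairpin, 5p or 3p, can be loaded into an Argonaute protein to repress messenger RNAs that pair with its seed, bases 2 to 8. One arm is usually far more abundant than the other. In neurons, miR-138-5p is known to limit the size of dendritic spines, miR-129-5p to repress the potassium channel Kv1.1, miR-137-3p to act in neuronal maturation and at synapses, and miR-153-3p to repress alpha-synuclein. miR-218 is known for its very high level in motor neurons and lies in introns of the axon guidance genes Slit2 and Slit3, and Mir488 lies in an intron of Astn1, a gene of neuronal migration.

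Mature sequences from RefSeq for GRCm38.p6 matched 14 of the 15 members by name, and miR-129-1-3p is given by name only. They are printed to show that the listed arms of one family do not share a seed, nor do the numbered 3p copies of miR-138 and of miR-218. This is not shown for the 3p copies of miR-129, since miR-129-1-3p has no listed sequence. The 3p side of the Mir129-1 hairpin does hold the sequence of miR-129-2-3p, seed included, apart from a u in place of a c near its 3′ end. Seeds are in capitals, and each sequence is written 5′ to 3′. The most abundant product of each family, and then the other products the results below turn on, read:
miR-153-3p: uUGCAUAGucacaaaagugauc
miR-218-5p: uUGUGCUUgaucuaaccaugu
miR-138-5p: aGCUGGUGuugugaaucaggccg
miR-488-3p: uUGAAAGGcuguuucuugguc
miR-129-5p: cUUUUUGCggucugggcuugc
miR-137-3p: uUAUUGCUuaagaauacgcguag
miR-153-5p: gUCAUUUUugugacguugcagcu
miR-488-5p: cCCAGAUAauagcacucucaa
miR-129-2-3p: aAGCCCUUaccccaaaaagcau
miR-138-1-3p: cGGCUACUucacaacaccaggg
miR-138-2-3p: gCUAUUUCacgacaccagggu
miR-218-1-3p: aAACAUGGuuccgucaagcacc
miR-218-2-3p: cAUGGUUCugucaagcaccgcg
The 14 sequences were 21 to 23 bases long and held 14 distinct seeds. No other of the 891 listed miRNAs with a sequence in the same table shared any of them. The 3p arms of the 2 Mir218 genes share the run gucaagcacc, which starts at base 13 of miR-218-1-3p and at base 10 of miR-218-2-3p, so their ends are offset and their seeds differ.

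The 15 products come from 9 precursor genes. On GRCm38, with GENCODE M21 annotation, Mir153 lies at chr12:117250817-117250885 on the plus strand, in an intron of Ptprn2 on the same strand. Mir488 lies at chr1:158505625-158505733 on the plus strand, in an intron of Astn1. Mir218-1 (chr5:48223942-48224051) and Mir218-2 (chr11:35616816-35616925) lie in introns of Slit2 and Slit3, all on the plus strand. Mir137 (chr3:118433857-118433929, plus) lies in an exon of the noncoding transcript Gm26871, Mir129-1 (chr6:29022619-29022691, plus) in an exon of the long noncoding RNA Gm3294, and Mir138-2 (chr8:94324311-94324381, plus) in an exon of the long noncoding RNA C78859. Mir138-1 (chr9:122682876-122682974, plus) lies in an exon of the annotated pseudogene Gm47135, and Mir129-2 (chr2:94241364-94241453, minus) in an intron of Mir670hg. miR-129-5p, miR-138-5p and miR-218-5p are each made by 2 genes from an identical sequence, so their counts cannot be assigned to either copy, while the 3p arms carry the number of their gene. Mir129b overlaps Mir129-2 on the other strand (chr2:94241378-94241442, plus) and has no row of its own, and the sources used here do not say whether the counting used strand.

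The Mir153 hairpin is shown because the main results below concern both of its arms, with the mature arms in capitals, miR-153-5p first and miR-153-3p second:
Mir153: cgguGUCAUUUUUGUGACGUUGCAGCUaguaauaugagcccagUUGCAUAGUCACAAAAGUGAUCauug

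Levels are counts of a product scaled to a fixed total of assigned miRNA reads (CPM), scaled between libraries by the trimmed mean of M-values (TMM). The libraries held 4211365 to 5410804 assigned reads in OldSAHA, 4642434 to 5249168 in OldVeh and 3585489 to 6808281 in YoungVeh. Markers of neurons outside the 6 families (7 products of miR-124, miR-9 and miR-128, all detected) summed to 65824 to 70691 CPM in OldSAHA, 77801 to 81858 CPM in OldVeh and 76510 to 86194 CPM in YoungVeh. OldSAHA thus did not overlap either vehicle group in that sum. Its largest parts were miR-9-5p and miR-128-3p. In OldSAHA, OldVeh and YoungVeh, miR-128-3p averaged 25447, 34553 and 34925 CPM, and miR-9-5p averaged 36335, 39102 and 40184.5 CPM. Neuronal miR-124-3p hardly differed, at 5516, 5551 and 5545 CPM. All 7 products had negative log2 fold changes in OldSAHA against OldVeh, of very unlike size. The liver miRNA miR-122 stayed between 0 and 1.44 CPM in every library. Summed miR-143 and miR-145, smooth muscle and pericyte markers (4 products), reached 43074 to 54004 CPM in OldSAHA 1, OldSAHA 3, OldVeh 2 and YoungVeh 4, against at most 27046 CPM elsewhere. OldSAHA 1 also had the highest sums of oligodendrocyte markers (8102 CPM, against 3337 to 5627 CPM elsewhere) and of microglial and myeloid markers (767 CPM, against 309 to 529 CPM elsewhere). In OldSAHA, OldVeh and YoungVeh the median sums were 4374, 4519 and 3695 CPM for oligodendrocyte markers. For microglial and myeloid markers they were 420, 379 and 321 CPM. Both sums were lowest in YoungVeh, with ranges that overlapped between groups. Their single products did not all go that way. In OldVeh against YoungVeh, 4 of 5 tested oligodendrocyte products had positive log2 fold changes and 1 a negative one. Of 3 tested microglial and myeloid products, 2 were positive and 1 was negative. Summed endothelial miR-126 overlapped between groups, at 7111 to 12064 CPM in OldSAHA, 9289 to 10943 CPM in OldVeh and 7379 to 11967 CPM in YoungVeh. In bulk tissue, fewer neurons and less of a miRNA per neuron cannot be told apart.

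Together the 15 members took 1.06% ± 0.148 of miRNA counts in OldSAHA (SD, n = 6), 1.15% ± 0.0752 in OldVeh (n = 5) and 1.07% ± 0.0859 in YoungVeh (n = 8). 3 products, one each of miR-153, miR-218 and miR-138, carried most of this. Over all 19 libraries miR-153-3p averaged 3377 ± 319 CPM (SD) and ranked 43rd of the 509 tested miRNAs, miR-218-5p averaged 2585 ± 314 CPM and miR-138-5p averaged 2418 ± 407 CPM. The ranges of these 3 over libraries overlapped. miR-488-3p (859 ± 98.3 CPM) and miR-129-5p (701 ± 52.4 CPM) came next and overlapped each other, followed by miR-129-2-3p (359 ± 40.4 CPM) and miR-137-3p (251 CPM, 183 to 312 CPM over libraries), which overlapped in their extremes. The other 8 products were minor arms below 103 CPM in every library. miR-153-5p averaged 81.4 CPM, miR-488-5p 80.9 CPM, miR-129-1-3p 61.5 CPM and miR-138-1-3p 43.9 CPM, whereas miR-218-1-3p (16.1 CPM), miR-218-2-3p (9.49 CPM), miR-138-2-3p (4.60 CPM) and miR-137-5p (3.62 CPM) were scarce, with as few as 10 reads of miR-137-5p in a library. The mature products differ little in length, so CPM orders them nearly as a level per length would. How readily each sequence is ligated and sequenced was not measured, so the order is that of sequenced reads.

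**Figure D1:**
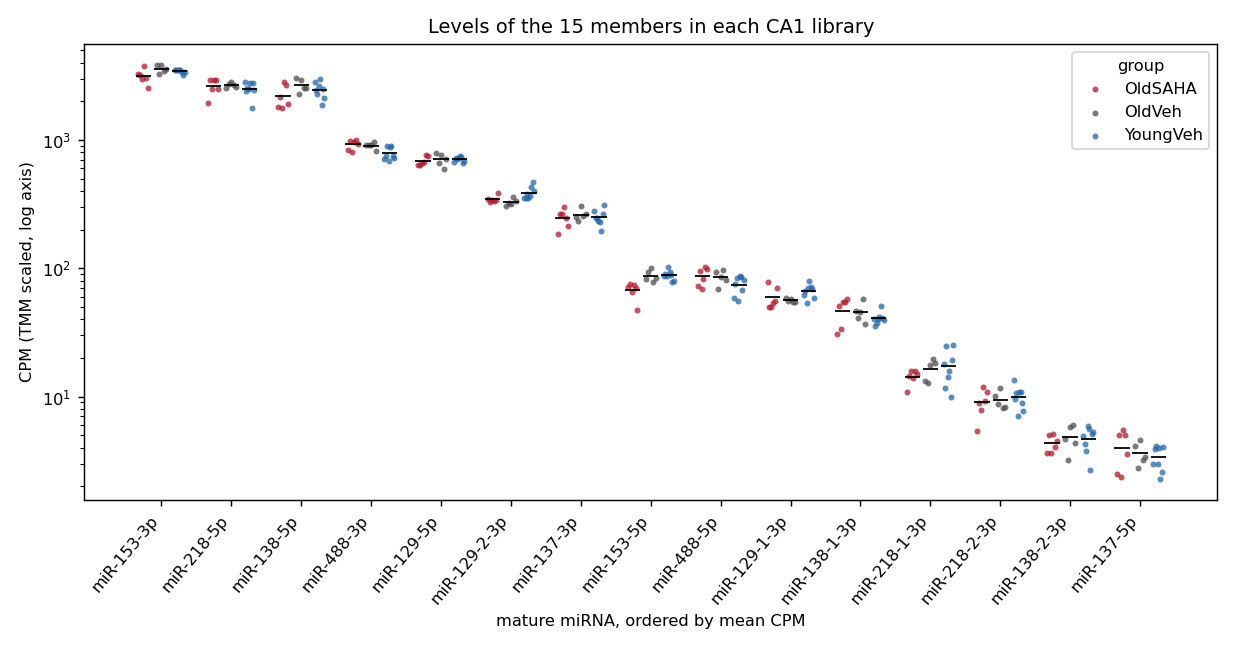
Level of each of the 15 members in each library, in TMM-scaled CPM on a log axis, with OldSAHA, OldVeh and YoungVeh side by side for each product. Points are libraries and black bars group means; levels run from 3377 CPM for miR-153-3p to 3.62 CPM for miR-137-5p (means of 19 libraries), and the groups of most products overlap.

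How much one arm dominated the counted reads differed between families. For miR-129, miR-138 and miR-218 it depends on how reads that match 2 genes were counted, which is not known. Of the reads of its family, miR-218-5p held 99.0% ± 0.164 (SD, n = 19), miR-137-3p 98.6% ± 0.312, miR-138-5p 98.0% ± 0.439 and miR-153-3p 97.7% ± 0.263. miR-488 was less one-sided, with 91.4% ± 0.783 of its reads from the 3p arm. In the miR-129 family the arms were closest, with 62.5% ± 3.06 for miR-129-5p, 32.0% ± 2.86 for miR-129-2-3p and 5.48% ± 0.709 for miR-129-1-3p. Between gene copies, miR-138-1-3p had 6.71 to 18.3 reads for each read of miR-138-2-3p, and miR-129-1-3p had 0.142 to 0.225 reads for each read of miR-129-2-3p. The copies of miR-218 were closer, with 0.907 to 3.22 reads of miR-218-1-3p for each read of miR-218-2-3p, and YoungVeh 6 was the library below 1.

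The first comparison asked which products differed with SAHA at 20 months. miR-153-5p was the single member called, and it was lower in OldSAHA. A product was called where edgeR's quasi-likelihood test gave an adjusted p under 0.05 (Benjamini-Hochberg over all 509 miRNAs), and 4.32% of them were called in OldSAHA against OldVeh. With 15 members, 1 call is near that background.

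miR-153-5p, the minor arm of Mir153, was at 71.1, 75.5, 65.7, 73.6, 70.0 and 46.9 CPM in the 6 OldSAHA libraries. It was at 82.5, 92.7, 100.2, 77.6 and 84.0 CPM in the 5 OldVeh libraries. YoungVeh libraries ranged from 78.6 to 103 CPM with a median of 87.9 CPM. Every OldSAHA library lay below every vehicle library of either age. OldSAHA 6 was the lowest, and the nearest libraries of OldSAHA and OldVeh were at 75.5 and 77.6 CPM. The log2 fold change was -0.38 ± 0.11 (SE; 95% interval -0.60 to -0.16; adjusted p = 0.0368, edgeR). Of all tested miRNAs, 4.91% did not overlap between OldSAHA and OldVeh. Leaving out 1 of OldSAHA 3 or 6 or of OldVeh 1, 2, 3 or 5 ended the call (adjusted p up to 0.116, without OldVeh 3), as did leaving out the 4 libraries high in miR-143 and miR-145 (adjusted p = 0.0911) and fitting only these 2 groups (adjusted p = 0.0989, edgeR). The log2 fold change stayed at -0.42 to -0.30 under the 30 alternatives tried.

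miR-153-3p, the abundant arm, was at 2527 to 3792 CPM with a median of 3114 CPM in OldSAHA. It was at 3829, 3270.3, 3853, 3419 and 3549.5 CPM in OldVeh, and YoungVeh held it within 3198 to 3524 CPM. In OldSAHA, 5 of 6 libraries lay below all OldVeh libraries, and OldSAHA 4 did not. Its log2 fold change was -0.20 ± 0.08 and was not called (95% interval -0.35 to -0.04; adjusted p = 0.132, edgeR). Without OldSAHA 4 it was -0.26 (adjusted p = 0.0261). The other 29 of 30 alternatives gave no call of miR-153-3p, with an adjusted p of up to 0.339 (edgeR, without OldVeh 1).

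The ratio of arms within a library does not depend on scaling between libraries. Reads of miR-153-5p per read of miR-153-3p were 0.0218, 0.0235, 0.0222, 0.0194, 0.0233 and 0.0186 in OldSAHA. They were 0.0216, 0.0284, 0.0260, 0.0227 and 0.0237 in OldVeh. The groups overlapped, and the difference in log2 ratio was -0.19 ± 0.09 (SE; adjusted p = 0.163, limma over 199 pairs of arms or gene copies in the whole table). No ratio of the members was called here, against a background of 10.6% of all pairs, and 1 of the 12 had an unadjusted p under 0.05; an exact permutation test gave 0 of the 12.

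**Figure D2:**
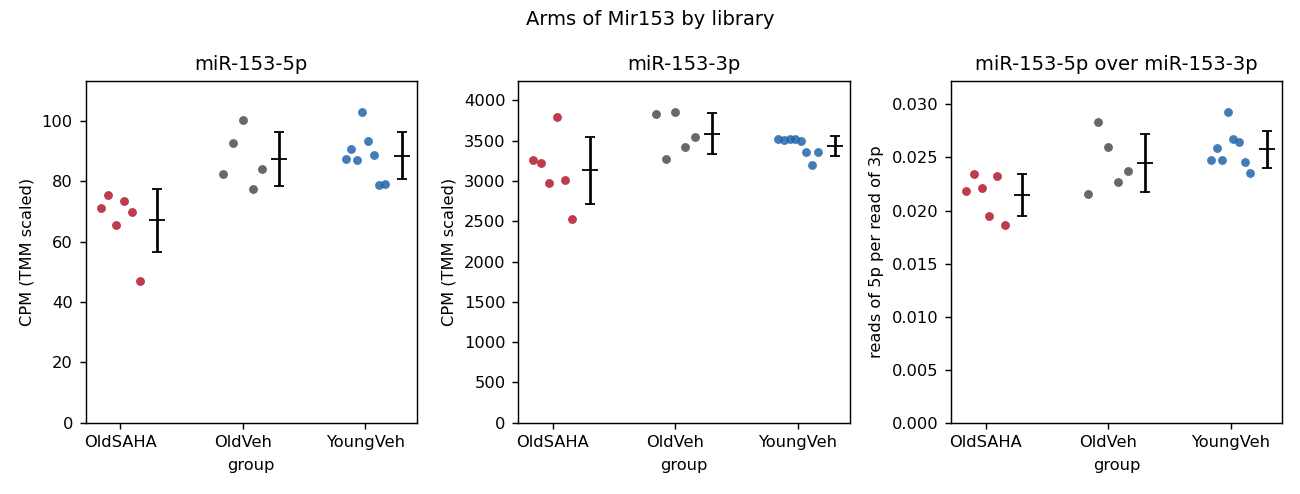
Both arms of Mir153 in CPM and the reads of miR-153-5p per read of miR-153-3p, by group. Points are libraries, and bars beside them give mean ± SD; the 6 OldSAHA libraries (46.9 to 75.5 CPM) all lie below the vehicle libraries for miR-153-5p, and for miR-153-3p OldSAHA 4 (3792 CPM) lies among OldVeh.

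miR-138-5p, the spine-limiting arm, ranged from 1782 to 2800.3 CPM in OldSAHA with a median of 2028 CPM. It was at 3054, 2268, 2933, 2525 and 2548 CPM in OldVeh. In OldSAHA, 4 of 6 libraries lay below all OldVeh libraries and 2 lay among them. The log2 fold change was -0.29 ± 0.13 (95% interval -0.55 to -0.02) and was not called (adjusted p = 0.218, edgeR). miR-138-1-3p, its partner from Mir138-1, averaged 46.7 ± 11.5 CPM in OldSAHA (SD, n = 6) and 45.3 ± 7.85 CPM in OldVeh (n = 5). The ratio of miR-138-5p to miR-138-1-3p was 33.1 to 58.4 in OldSAHA, with a median of 50.1, and 43.9 to 69.3 in OldVeh, with a median of 64.1. Its difference was -0.32 ± 0.16 on the log2 scale (adjusted p = 0.205, limma). Without OldSAHA 1 and YoungVeh 6 together, which was tried only once the values were known, it was -0.39 and passed the test (adjusted p = 0.0282). The other 24 of 25 alternatives gave no call of this ratio, with an adjusted p of 0.402 (limma) without OldSAHA 6. Since miR-138-5p is also made by Mir138-2, this ratio mixes both genes in its upper term.

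The 12 remaining products were not called. miR-218-5p averaged 2620.5 ± 414 CPM in OldSAHA (SD, n = 6) and 2670.3 ± 116 CPM in OldVeh (n = 5). miR-488-3p averaged 921 ± 80.9 and 902 ± 50.03 CPM in OldSAHA and OldVeh, miR-129-5p 687 ± 56.3 and 705 ± 78.6 CPM, miR-129-2-3p 345 ± 21.6 and 328 ± 19.9 CPM, and miR-137-3p 245 ± 41.3 and 261 ± 26.1 CPM. For the 7 uncalled products above 200 CPM, the 95% intervals of the log2 fold change reached no further than -0.55 and 0.24. The intervals of the 7 scarcer ones differed in width. That of miR-129-1-3p ran from -0.16 to 0.33 and that of miR-488-5p from -0.25 to 0.29, while that of miR-218-1-3p reached -0.61 and that of miR-137-5p reached 0.62. The median log2 fold change of the 15 members was -0.04, with 6 above 0 and 9 below, and that of all 509 tested was -0.01, with 248 above 0 and 261 below. All members with an unadjusted p under 0.05 (edgeR), namely miR-153-5p, miR-153-3p and miR-138-5p, had negative values. They were 3 of 15, near the background of 99 of all 509 tested.

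**Figure D3:**
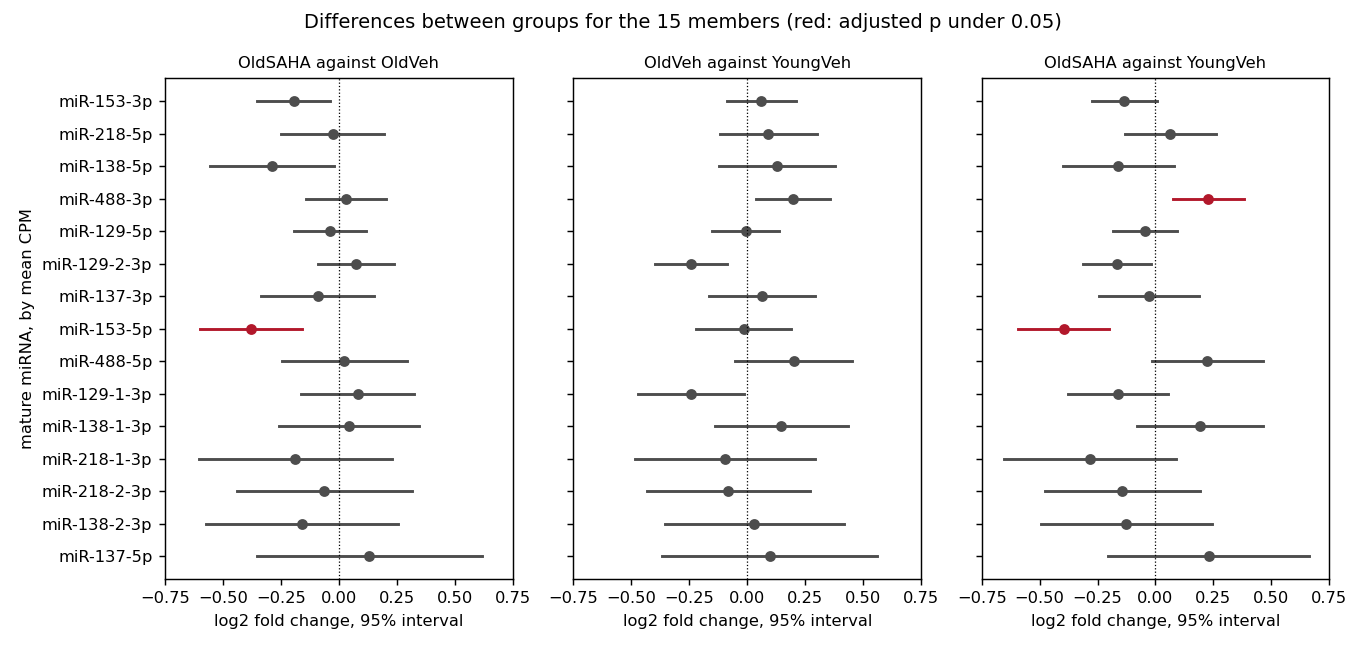
Log2 fold change with its 95% interval for each member in the 3 comparisons, from edgeR. Red marks an adjusted p under 0.05: miR-153-5p in both comparisons of OldSAHA (-0.38 and -0.40) and miR-488-3p in OldSAHA against YoungVeh (0.23); no member is red in OldVeh against YoungVeh.

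The comparison of OldVeh with YoungVeh asked about age under vehicle. No member was called, against 2.16% of all tested miRNAs. At an unadjusted p under 0.05 in edgeR there were 3 of 15 members, near the background of 80 of all 509 tested. DESeq2 and limma-voom with quality weights each called 1 member, miR-129-2-3p. Of all tested miRNAs, DESeq2 called 6 higher and 14 lower with age, and limma-voom 7 higher and 19 lower. No member separated the 2 ages without overlap, as 3.14% of all tested miRNAs did.

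miR-129-2-3p, the arm of Mir129-2 opposite miR-129-5p, was at 308, 319, 317, 358 and 337 CPM in OldVeh. In YoungVeh it ranged from 352 to 471 CPM with a median of 371 CPM. In OldVeh, 4 of 5 libraries lay below all YoungVeh libraries, and OldVeh 4 overlapped. The log2 fold change was -0.24 ± 0.08 (95% interval -0.40 to -0.09; adjusted p = 0.0797, edgeR), and the adjusted p was 0.0434 with DESeq2 and 0.0453 with limma-voom. The other 28 of 30 alternatives gave no call of miR-129-2-3p, with an adjusted p of up to 0.417 (edgeR). With 1 library left out it was at most 0.269 (edgeR, without OldVeh 1). Its counterpart from the other gene, miR-129-1-3p, averaged 56.2 ± 1.85 CPM in OldVeh (SD, n = 5) and 66.5 ± 8.28 CPM in YoungVeh (n = 8). The log2 fold change of miR-129-1-3p was also -0.24 ± 0.11 (adjusted p = 0.268, edgeR). Short reads of miR-129-1-3p and miR-129-2-3p cannot be told apart by gene, so these rows are not fully separate measures. miR-129-5p, made by both genes, averaged 705 ± 78.6 CPM in OldVeh and 708 ± 31.5 CPM in YoungVeh. Reads of miR-129-5p per read of miR-129-2-3p were 2.55, 2.08, 2.42, 1.65 and 2.12 in OldVeh and 1.41 to 2.06 in YoungVeh with a median of 1.89. In OldVeh, 4 of 5 libraries lay above all YoungVeh libraries, and the difference of 0.22 ± 0.10 on the log2 scale was not called (adjusted p = 0.302, limma). No ratio of the members was called for age, and 0.503% of all pairs were, while the ratio of miR-129-5p to miR-129-2-3p alone had an unadjusted p under 0.05 in limma. An exact two-sided permutation test gave p = 0.0878 for that ratio and p = 0.0287 for miR-129-5p to miR-129-1-3p, which did not pass 0.05 unadjusted in limma.

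miR-488-3p was at 918, 907, 907, 958 and 821 CPM in OldVeh. In YoungVeh it ranged from 679.7 to 902 CPM with a median of 752 CPM, so that 4 of 5 OldVeh libraries lay above all YoungVeh ones. The log2 fold change was 0.20 ± 0.08 (95% interval 0.04 to 0.36; adjusted p = 0.205, edgeR). The minor arm miR-488-5p averaged 85.2 ± 10.8 CPM in OldVeh and 74.0 ± 12.3 CPM in YoungVeh, and the arms kept nearly the same proportion, with 8.62% ± 0.879 of the family's reads from the 5p arm in OldVeh. The median log2 fold change of the 15 members with age was 0.06, with 9 above 0, and that of all tested was -0.003, with 250 above 0. The 95% intervals of the 7 members above 200 CPM reached from -0.40 to 0.38.

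**Figure D4:**
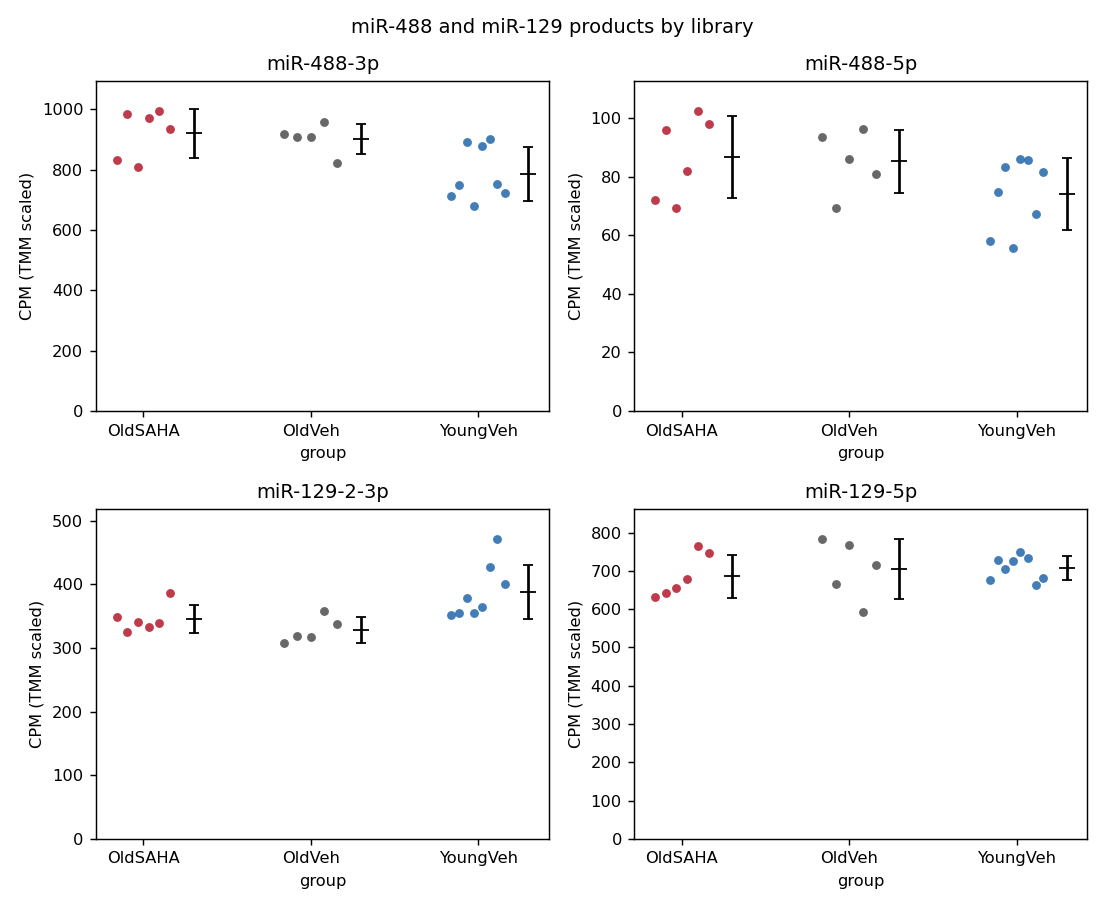
CPM of both miR-488 arms and of miR-129-2-3p and miR-129-5p by group, on axes that start at 0. Points are libraries, and bars beside them give mean ± SD; miR-488-3p averages 921 CPM in OldSAHA, 902 CPM in OldVeh and 786 CPM in YoungVeh, and miR-129-2-3p averages 328 CPM in OldVeh and 388 CPM in YoungVeh, with groups that overlap.

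OldSAHA was also set against YoungVeh, a comparison that shares its libraries with the other 2 and differs in age and drug at once. Here 1 member was lower and 1 higher, 2 of 15, where 13.9% of all tested miRNAs were called and 3.54% did not overlap. miR-153-5p was lower, with a log2 fold change of -0.40 ± 0.10 (95% interval -0.59 to -0.20; adjusted p = 0.0071, edgeR) and all 6 OldSAHA libraries below all 8 YoungVeh libraries. This call held under all 30 alternatives tried, with an adjusted p of at most 0.0277. miR-488-3p was higher, at 808 to 994 CPM with a median of 953 CPM in OldSAHA, against 679.7 to 902 CPM with a median of 752 CPM in YoungVeh. Of the OldSAHA libraries, 4 of 6 lay above all YoungVeh libraries, and its log2 fold change was 0.23 ± 0.07 (95% interval 0.07 to 0.38; adjusted p = 0.0417, edgeR). That call ended without any 1 of OldSAHA 2, 4, 5 or 6 or of YoungVeh 1, 2, 4, 7 or 8 (adjusted p up to 0.0907, without OldSAHA 2). Against OldVeh the difference of miR-488-3p was 0.03 ± 0.08, with 3 OldSAHA libraries above all OldVeh libraries and 1 below them.

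The arm ratio of Mir153 was also called between OldSAHA and YoungVeh. OldSAHA libraries had 0.0186 to 0.0235 reads of miR-153-5p per read of miR-153-3p, and YoungVeh libraries had 0.0236 to 0.0293. All 6 OldSAHA libraries lay below all YoungVeh libraries, and the difference was -0.27 ± 0.08 on the log2 scale (adjusted p = 0.0248, limma). It was the only one of the 12 member ratios called, against 15.6% of all pairs. Without OldSAHA 4, OldSAHA 6, YoungVeh 4 or the 4 libraries high in miR-143 and miR-145 the call ended (adjusted p up to 0.0653). OldVeh, at 0.0216 to 0.0284, spanned the gap between the other 2 groups, and its difference from YoungVeh was -0.08 ± 0.08 (adjusted p = 0.787). The ratio of miR-138-5p to miR-138-1-3p differed by -0.33 ± 0.14 between OldSAHA and YoungVeh (adjusted p = 0.125, limma). Without YoungVeh 6, which had 36.6 where the other YoungVeh libraries had 53.6 to 70.6, it was -0.43 and was called (adjusted p = 0.00588). This ratio was called under 3 of 25 alternatives, and the adjusted p was 0.272 (limma) without OldSAHA 6. The arms of miR-488 kept their ratio, with differences of at most 0.01 in size on the log2 scale in each comparison and 95% intervals from -0.21 to 0.19.

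When arms and copies were summed for each of 324 miRNA numbers, the miR-488 total was the single family total called in any comparison, higher in OldSAHA than in YoungVeh by 0.25 ± 0.07 on the log2 scale (adjusted p = 0.0211, edgeR; 77 totals were called). The miR-153 total, which is mostly miR-153-3p, differed by -0.18 ± 0.08 between OldSAHA and OldVeh and was not called (adjusted p = 0.204).

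Other neuron-enriched miRNAs were given for comparison as 29 listed products of 14 miRNA numbers, 27 of them tested; they were listed with earlier results of these data known. In OldSAHA against OldVeh 3 of 27 were lower and none higher, with a median of -0.06. They were miR-128-3p (-0.44 ± 0.08, adjusted p = 0.00344), miR-485-3p (-0.50 ± 0.10, adjusted p = 0.00439) and miR-9-3p (-0.28 ± 0.07, adjusted p = 0.0176, edgeR). The abundant neuronal miR-124-3p averaged 5516 CPM in OldSAHA and 5551 CPM in OldVeh. With age 0 of 27 were called by edgeR, and 3 had an unadjusted p under 0.05, as did 80 of all 509 tested. The sum of miR-124, miR-9 and miR-128 was lower in OldSAHA together with miR-153-5p, and the part of one in the other was not tested.

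Averaged over the 15 members as log2 deviation from each product's mean, libraries ran from -0.26 in OldSAHA 1 and -0.20 in OldSAHA 3 to 0.13 in OldSAHA 4, 0.13 in YoungVeh 5 and 0.17 in OldVeh 3. OldSAHA 1 was above the mean for 1 of 15 members and OldSAHA 3 for 2, whereas OldVeh 3 and YoungVeh 5 were above it for 13 each and OldSAHA 4 for 10. YoungVeh 6 averaged -0.12 but was above the mean for 8 of 15, so its members went both ways. OldSAHA 1 and 3 are among the 4 libraries high in miR-143 and miR-145, and OldSAHA 1 is the one highest in glial markers; the part of these in the members' values was not tested. In YoungVeh 6, miR-218-5p was at 1777 CPM against 2415 to 2811 CPM in the other YoungVeh libraries, whereas miR-129-2-3p in the same library, at 427 CPM, was above the YoungVeh median of 371 CPM.

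**Figure D5:**
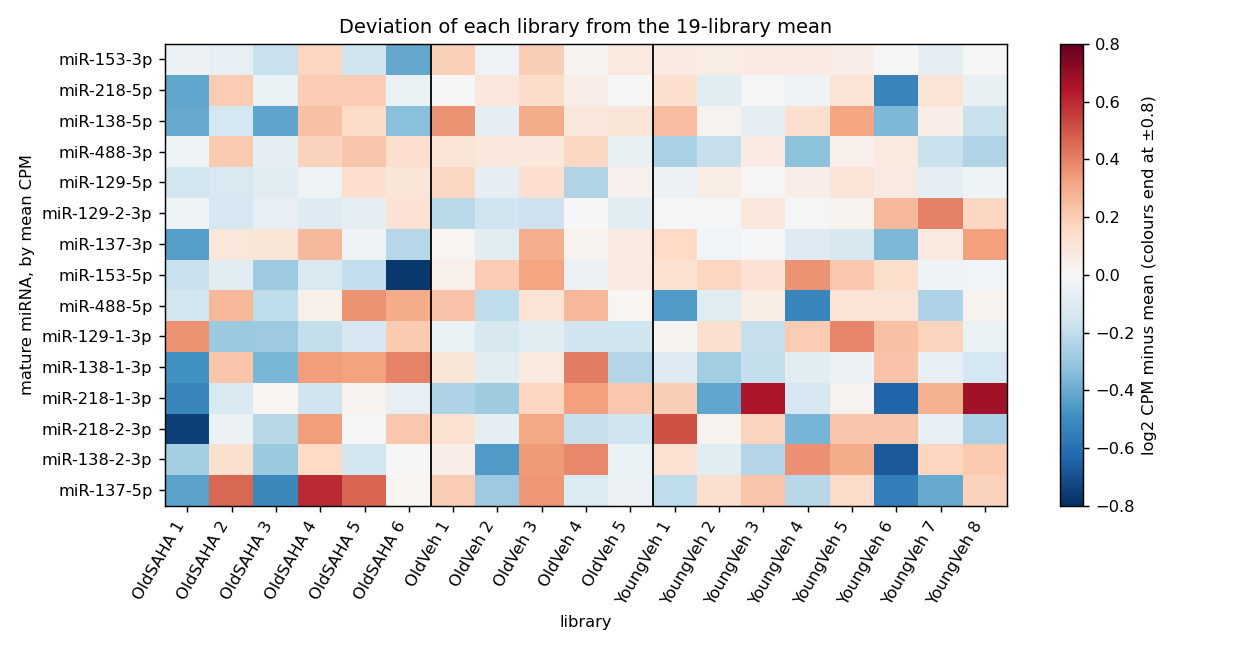
Deviation of each library from the mean of 19 libraries in log2 CPM, for each member, with OldSAHA, OldVeh and YoungVeh from left to right and black lines between groups. Red is above and blue below the mean; OldSAHA 1 is red for 1 of 15 members, and miR-153-5p is blue in all 6 OldSAHA libraries.

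Across the 19 libraries, the Pearson r of log2 CPM between members ran from -0.10 to 0.82 over 12 pairs within a family, with a median of 0.42, and from -0.64 to 0.70 over 93 pairs between families, with a median of 0.07, beside medians of 0.32 over 184 pairs of arms in the whole table and -0.001 over all tested pairs. The lowest pair within a family was miR-129-2-3p with miR-129-5p. These points share libraries and depth, and the values are a description. The closest tested miRNA outside the 6 families was miR-9-3p for miR-153-3p (r = 0.82, Spearman's rho = 0.72), miR-132-3p for miR-138-5p (r = 0.83, rho = 0.84) and for miR-129-5p (r = 0.63, rho = 0.65), miR-221-3p for miR-218-5p (r = 0.84, rho = 0.80), miR-7a-2-3p for miR-137-3p (r = 0.86, rho = 0.82) and miR-1843-5p for miR-488-3p (r = 0.75, rho = 0.79). Next came miR-377-3p for miR-153-3p (r = 0.73), miR-379-3p for miR-138-5p (r = 0.77), miR-664-5p for miR-129-5p (r = 0.62), miR-344d-3p for miR-218-5p (r = 0.78), miR-130a-3p for miR-137-3p (r = 0.76) and miR-1843b-5p for miR-488-3p (r = 0.71). Without the 2 libraries farthest from the median of the member, the r of miR-218-5p with miR-344d-3p was 0.33, so that likeness rests on YoungVeh 6 and OldSAHA 1, and the others were 0.57 to 0.78.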

How the data were processed

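The deposited values are raw counts of reads per mature miRNA name, which the authors did not normalise. Per the submitters' processing notes, the build was mm10 and the tools were HTSeq, STAR, cutadapt and CASAVA 1.8.2, with settings and the miRNA annotation release not given in the sources used here. The labels give neither sex nor batch. The 4 summary lines were all 0 and were left out. Reads carry no molecular identifiers, so intervals cover counting and library spread only.

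The members and lists were chosen with earlier results of these data known. Every member is named. For each family's most abundant product the 2 most correlated miRNAs outside the families are named, and of the other neuron-enriched products at most 4 by smallest p, with miR-124-3p added after its values were seen.

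All 19 libraries were fitted with edgeR 4.0.16 in R 4.3.3 (filterByExpr with minimum count 10 and total 15, TMM, robust quasi-likelihood F test, 1 term per group, Benjamini-Hochberg). Ratios of arms and copies with a mean of at least 10 reads each were fitted as log2 ratios with 0.5 read added, by limma-trend 3.58.1 (robust). Both were also run on simulated data, and no recovery rate is given here for differences of the size seen. Over the 53 pairs of libraries within groups, the counts differed by 26.6 to 319 in chi-square per degree of freedom, so no such pair looked like a copy; pairs across groups were not checked. Alternatives included DESeq2 1.42.0, limma-voom, other scalings and filters, left-out libraries and a replicate block.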

Additional observations from a re-analysis of the deposited data

Results flagged for a closer look

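In 81 sets of values (a member's CPM or ratio within a group), 7 had a highest or lowest library far from the rest of its group. Chance alone would do this for about 1 in 20 independent sets. These sets are not independent, since the 36 ratio sets reuse reads of the 45 CPM sets, so the 7 cannot be weighed against that rate. YoungVeh 6 accounted for 4 of the 7: miR-138-1-3p at 50.7 CPM with the next library at 41.9, miR-218-5p at 1777 CPM with the next at 2415, the ratio of miR-138-5p to miR-138-1-3p at 36.6 with the next at 53.6, and the ratio of miR-138-1-3p to miR-138-2-3p at 18.3 with the next at 9.78. These ratios both hold miR-138-1-3p. OldSAHA 6 had miR-153-5p at 46.9 CPM with the next OldSAHA library at 65.7. OldSAHA 1 had miR-218-1-3p at 10.8 CPM with the next at 14.0. OldVeh 2 had 0.0765 reads of miR-488-5p per read of miR-488-3p with the next at 0.0950.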

How the results depend on the processing

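Of 1343 log2 fold changes of members under alternatives, 60 changed sign, none of them called and none past 0.10 in size, and of 885 ratio differences 72 did, none of them called. The count of members lower in OldSAHA against OldVeh was 1, and 0 with no filter, only the groups compared, the 3 most abundant miRNAs left out, arms summed, or without the 4 libraries high in miR-143 and miR-145 (tried only once the values were known), and 0 to 2 with 1 library left out. For age it was 0, and 1 with DESeq2 or limma-voom. For OldSAHA against YoungVeh, the count lower was 1 and 0 with arms summed. The count higher was 1, 3 without those 4 libraries (miR-138-1-3p, miR-488-3p and miR-488-5p), and 0 to 1 with 1 library left out. The count of ratios called was 1, 0 without those 4 libraries, 0 to 2 with 1 library left out, and 3 without OldSAHA 1 and YoungVeh 6, which gave 1 in OldSAHA against OldVeh; that choice for ratios also came once the values were known.

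With the replicate number of the titles as a block, 0 members were called in OldSAHA against OldVeh (miR-153-5p adjusted p = 0.0936), 0 were higher in OldSAHA against YoungVeh (miR-488-3p adjusted p = 0.132), and 2 ratios were called there. The numbers share nothing the labels name, and same-numbered libraries did not deviate together (r from -0.20 to 0.11, -0.32 to 0.27 and -0.11 to 0.31 in the 3 comparisons; at most 2 libraries correlated best with their own number). Over the whole table, 22 calls in OldSAHA against OldVeh became 11 without OldSAHA 6 and 47 with limma-voom, 11 for age became 8 to 26, and 71 for OldSAHA against YoungVeh became 57 to 103; called ratios went to 12 and 36, 0 and 2, and 16 and 50, beside 21, 1 and 31. The scarcest product, miR-137-5p, had as few as 10 reads in a library.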
